A study of Rattus norvegicus with 30 samples.

Results

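The uptake carriers of the blood-facing (sinusoidal) hepatocyte membrane were followed through their transcripts in cultured rat hepatocytes given phenobarbital. Slc10a1, Slco1a1, Slco1a4 and Slco1b2 were taken by name, with earlier results of these data known. Every probe set annotated to 1 of these 4 genes was used, which gave 6 of the 31099 probe sets on the array. Slc10a1 and Slco1a1 had 1 probe set each, and Slco1a4 and Slco1b2 had 2 each. The cells were frozen hepatocytes of male Sprague Dawley rats, bought from a supplier, grown on collagen, overlaid with Matrigel and dosed on day 3 of culture. RNA was taken 24 h or 48 h after dosing with vehicle, 300 µM phenobarbital or 3000 µM phenobarbital, which gave 6 groups of 5 culture wells and 1 Affymetrix rat genome array per well. The labels name the vehicle in different ways, as water in titles and as culture medium where the agent is given. The labels call the wells independent cultures but number no animals, so p-values measure the spread between wells only.

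Hepatocytes take bile acids, hormones and drugs out of the portal blood through carriers on their sinusoidal side and pass them to enzymes and to export pumps on the bile side. Slc10a1 encodes NTCP, which moves conjugated bile acids into the cell together with sodium. The 3 Slco genes encode organic anion transporting polypeptides, which work without sodium and accept bile acids, steroid conjugates, thyroid hormones and many drugs. Phenobarbital is a barbiturate anticonvulsant known for inducing Cyp2b genes through the constitutive androstane receptor, CAR, and Slco1a4 is known as a target of the related pregnane X receptor, PXR.

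The 250 bases before the RefSeq start site of each gene are shown because these 4 genes, 3 of them neighbours, moved in different directions at the same dose. The sequences are from RefSeq on GRCr8 and run 5′ to 3′ on the gene's own strand, at chr6:106357945-106358194 (minus strand) for Slc10a1, chr4:176681993-176682242 (minus strand) for Slco1a1, chr4:176495847-176496096 (minus strand) for Slco1a4 and chr4:176282334-176282583 (plus strand) for Slco1b2. Capitals mark exact matches, on either strand, to any of 4 short motifs searched: AGGTCA, a core site of nuclear receptors, AGTTCA, a common variant of that core site, TTCNNNGAA, the site of STAT factors, and TATAAA, the TATA box.
Slc10a1: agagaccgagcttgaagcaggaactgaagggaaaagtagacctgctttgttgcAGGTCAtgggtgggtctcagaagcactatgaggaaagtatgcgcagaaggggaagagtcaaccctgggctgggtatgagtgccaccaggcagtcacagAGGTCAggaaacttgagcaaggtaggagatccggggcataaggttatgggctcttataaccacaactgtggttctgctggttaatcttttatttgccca
Slco1a1: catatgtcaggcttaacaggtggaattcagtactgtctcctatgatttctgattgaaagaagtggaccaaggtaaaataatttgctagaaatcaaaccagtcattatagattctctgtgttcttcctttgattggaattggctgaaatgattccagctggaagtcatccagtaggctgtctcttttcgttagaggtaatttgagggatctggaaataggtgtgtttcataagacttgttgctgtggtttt
Slco1a4: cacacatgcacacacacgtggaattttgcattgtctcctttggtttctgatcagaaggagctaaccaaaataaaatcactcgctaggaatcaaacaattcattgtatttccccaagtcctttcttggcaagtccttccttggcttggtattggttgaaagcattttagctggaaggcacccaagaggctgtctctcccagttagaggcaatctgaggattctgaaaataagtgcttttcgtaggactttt
Slco1b2: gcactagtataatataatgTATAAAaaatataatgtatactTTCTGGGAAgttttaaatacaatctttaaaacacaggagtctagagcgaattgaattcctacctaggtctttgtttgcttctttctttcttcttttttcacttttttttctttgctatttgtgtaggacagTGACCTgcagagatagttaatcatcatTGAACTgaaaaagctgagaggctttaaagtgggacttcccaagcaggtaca

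The Slc10a1 sequence held AGGTCA at positions -197 and -99, counted from the start site to the first base of the match. The Slco1b2 sequence held TATAAA at -231, the STAT letters at -209 and, on the opposite strand, AGGTCA at -78 and AGTTCA at -51. No match overlapped another, and the Slco1a1 and Slco1a4 sequences held none of the 4 motifs. Among 33469 rat promoters of this length, 14.1% held AGGTCA, 12.2% AGTTCA, 7.67% the STAT letters and 12.9% TATAAA, and a match says nothing of whether a factor binds. The Slco1a1 and Slco1a4 sequences were identical at 179 of 266 aligned positions (67.3%), whereas the other 5 pairs were identical at 46.5% to 51.9%. In the RefSeq gene order on chromosome 4, Slco1b2, Slco1a4 and Slco1a1 follow each other directly, between Slco1c1 and Slco1a3, while Slc10a1 lies on chromosome 6.

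The treatment was visible in the CAR target genes. The probe set annotated to both Cyp2b1 and Cyp2b2 was 24.3-fold higher than vehicle at 300 µM and 2.25-fold higher at 3000 µM at 24 h, and 13.1-fold higher at 300 µM at 48 h, while at 3000 µM and 48 h it did not pass the test (1.09-fold, adjusted p = 0.706). The Cyp2b1 and Cyp2b2 signals at 3000 µM and 48 h ran from 1315 to 5399, with a median of 1611. Cyp2c6v1 was 3.21-fold to 4.75-fold higher in all 4 comparisons with vehicle. Array medians lay between 349 and 425 signal units, and pairs of wells of 1 group correlated at 0.951 to 0.981. In 2 arrays, vehicle 24 h replicate 1 and 3000 µM 48 h replicate 4, the 18 hybridization control probe sets averaged log2 signals of 14.14 and 14.57, against at most 13.35 in the others. The second of these 2 arrays also correlated least with its own group, at a mean of 0.954. The Cyp2b1 and Cyp2b2 values were not recomputed without it. All 9 measured hepatocyte markers reached the level at which probe sets were tested, a signal of 384 or 8.58 on the log2 scale. The labelled RNA was 1 µg and all arrays had the same trimmed mean signal, so signals are shares of the RNA and do not count cells. A smaller share of cells that hold a transcript and less of it per cell cannot be told apart in whole wells.

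At 3000 µM the 4 carriers separated. Slc10a1, Slco1b2 and Slco1a1 were lower than vehicle at both times, and the largest of these log2 changes were those of Slc10a1, -1.41 at 24 h and -1.52 at 48 h. Slco1a4 was higher than vehicle at both times, by 0.97 and 0.75 on 1 probe set and 1.50 and 1.13 on the other. At 300 µM only Slco1a1 passed the test, by -0.41 at 24 h and -0.64 at 48 h. All 6 probe sets passed at 3000 µM, 2 higher and 4 lower at each time, where 32.0% of the 16596 probe sets tested passed at 24 h (17.3% higher, 14.8% lower) and 39.4% at 48 h (19.5% higher, 19.9% lower). At 300 µM 1 of 6 passed at each time, against 2.99% and 1.54% of all probe sets. The 6 probe sets stand for 4 genes, and the 2 higher ones are both of Slco1a4. The members and the gene lists were chosen with earlier results of these data known. Counts here and below thus measure no excess over the shares of all probe sets. Of the 6, Slco1b2 1369746_a_at was tested only because some groups where it is high reached the tested level, so its 3000 µM calls add no support to the other 5, which lay above that level in all 6 groups. A change is called here when limma's moderated test, fitted over all 30 arrays and adjusted over all probe sets tested (Benjamini-Hochberg), gave an adjusted p under 0.05. Both doses were compared with the same 5 vehicle wells of each time, so the comparisons are not independent.

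**Figure D1:**
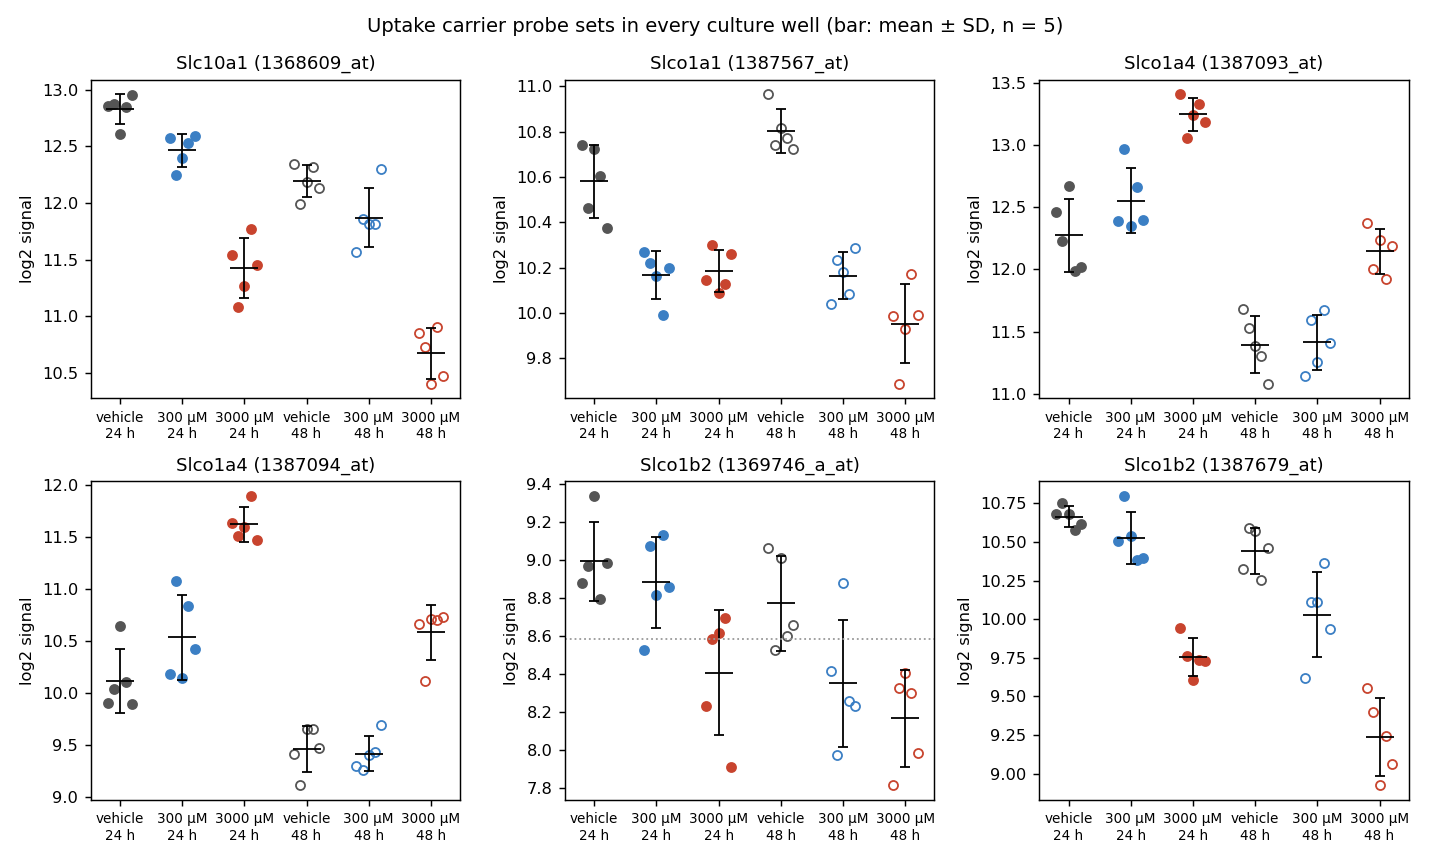
Log2 signal of the 6 probe sets of Slc10a1, Slco1a1, Slco1a4 and Slco1b2 in every culture well, by dose and time, with points for wells, filled at 24 h and open at 48 h, and bars for the mean ± SD of 5 wells; the dotted line is the tested level of 8.58, and each panel has its own vertical axis. At 3000 µM the Slc10a1 wells lie below and the Slco1a4 wells above all vehicle wells of the same time.

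Slc10a1 had its highest signals in the vehicle wells at 24 h and its lowest at 3000 µM and 48 h. At 24 h the Slc10a1 signal was 7430.3, 7522, 6261, 7389.7 and 7953 in the 5 vehicle wells, 6104, 4862, 5387, 5926 and 6169 at 300 µM and 2982, 2169, 2466, 3505 and 2799.6 at 3000 µM. At 48 h the Slc10a1 signal was 5203, 4073, 4658, 5096 and 4483 in the vehicle wells, 3042, 3721, 3609.8, 3599 and 5032 at 300 µM and 1854, 1698, 1358, 1919.8 and 1418 at 3000 µM. The 3 dose groups formed steps without overlap at 24 h, whereas at 48 h the vehicle and 300 µM wells overlapped and the 3000 µM wells lay below both. The fall at 3000 µM was 2.65-fold at 24 h (log2 change -1.41, SE 0.12, adjusted p = 5.85e-11) and 2.87-fold at 48 h (log2 change -1.52, SE 0.12, adjusted p = 4.64e-12). At 300 µM the Slc10a1 difference from vehicle was -0.36 at 24 h (95% interval -0.61 to -0.12, adjusted p = 0.102) and -0.32 at 48 h (95% interval -0.56 to -0.079, adjusted p = 0.209), and neither passed the test. All 5 wells at 300 µM lay below all 5 vehicle wells at 24 h, and a fit of those 2 groups alone gave an adjusted p of 0.0154.

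From the highest group mean to the lowest, Slc10a1 ran from vehicle at 24 h (12.83 ± 0.13 log2 units, SD, n = 5) through 300 µM at 24 h (12.47 ± 0.15), vehicle at 48 h (12.19 ± 0.14), 300 µM at 48 h (11.87 ± 0.26) and 3000 µM at 24 h (11.42 ± 0.26) to 3000 µM at 48 h (10.67 ± 0.23). Neighbours in this order overlapped except at its ends, where vehicle at 24 h stood above the next group and 3000 µM at 48 h stood below the one before it. Its 6 group means spanned 2.16 log2 units, close to the 2.20 of Slco1a4 probe set 1387094_at and more than those of the other 4 probe sets.

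Slco1b2, the rodent counterpart of the human OATP1B carriers of statins and bilirubin conjugates, fell at 3000 µM on its brighter probe set, 1387679_at. On probe set 1387679_at the signal at 24 h was 1646, 1727, 1644, 1528 and 1573 in the vehicle wells, 1453, 1782, 1488, 1337 and 1348 at 300 µM and 985, 867, 779, 852 and 848 at 3000 µM. At 48 h it was 1281, 1543, 1522, 1219 and 1412 in the vehicle wells, 788, 1109, 1108, 1321 and 979 at 300 µM and 753, 675, 486, 605 and 535 at 3000 µM. At both times all 3000 µM wells lay below all vehicle and all 300 µM wells, and the 300 µM wells overlapped the vehicle wells. The fall at 3000 µM was 1.88-fold at 24 h (log2 change -0.91, SE 0.12, adjusted p = 3.05e-07) and 2.30-fold at 48 h (log2 change -1.20, SE 0.12, adjusted p = 6.79e-10). The difference at 300 µM was -0.14 at 24 h (95% interval -0.38 to 0.11) and -0.41 at 48 h (95% interval -0.65 to -0.17, adjusted p = 0.0765). The second of these gained a call without 300 µM 48 h replicate 4 (adjusted p = 0.0312), the well with the highest of those signals.

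The second Slco1b2 probe set, 1369746_a_at, was dim and reached the tested level through both vehicle groups and the 300 µM group at 24 h. Its signals ran over 445 to 648 in vehicle, 369.6 to 562 at 300 µM and 240.3 to 414 at 3000 µM at 24 h, and over 369 to 537, 252 to 471 and 225 to 339.6 at 48 h. The 3000 µM wells lay below the vehicle wells at both times without overlap. Its difference from vehicle at 3000 µM was -0.59 at 24 h (SE 0.19, adjusted p = 0.0191) and -0.61 at 48 h (SE 0.19, adjusted p = 0.0123). Both 3000 µM group means were under the tested level, so this probe set is no independent support for the fall on 1387679_at; with no filter on low signals its adjusted p was 0.0300 and 0.0192. The 24 h call was lost without vehicle 24 h replicate 3 (adjusted p = 0.0641) or without 3000 µM 24 h replicate 5 (adjusted p = 0.0774). The 6 group means of probe set 1387679_at fell in the same order as those of Slc10a1, from vehicle at 24 h (10.66 ± 0.068 log2 units, SD, n = 5) to 3000 µM at 48 h (9.24 ± 0.25), with only the last group free of overlap with its neighbour. On 1369746_a_at every group overlapped the next in the order of the means.

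Slco1a1 encodes a carrier that is known as male-predominant in rodent liver and that takes up steroid and bile acid conjugates, and its transcript was the 1 member that passed the test at both doses. The Slco1a1 signal at 24 h was 1712, 1413, 1688, 1555 and 1326 in the vehicle wells, 1234, 1193, 1147, 1019 and 1175 at 300 µM and 1133, 1261, 1087, 1118 and 1228 at 3000 µM. At 48 h it was 1999, 1713, 1804, 1747 and 1689 in the vehicle wells, 1051, 1203, 1160.01, 1084 and 1250.2 at 300 µM and 1013, 825, 976, 1152 and 1016 at 3000 µM. At both times all treated wells lay below all vehicle wells, and the wells of the 2 doses overlapped each other. Against vehicle Slco1a1 changed by -0.41 at 300 µM (SE 0.091, adjusted p = 0.00694) and -0.40 at 3000 µM (adjusted p = 0.000858) at 24 h. The values at 48 h were -0.64 at 300 µM (adjusted p = 2.76e-05) and -0.85 at 3000 µM (adjusted p = 2.83e-09), a 1.56-fold and a 1.80-fold fall.

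Between the doses Slco1a1 differed by 0.015 at 24 h (3000 µM minus 300 µM, 95% interval -0.17 to 0.20) and by -0.21 at 48 h (95% interval -0.40 to -0.027, adjusted p = 0.0693), and neither passed the test. The 48 h difference gained a call without 3000 µM 48 h replicate 4 (adjusted p = 0.0225). In order of group means Slco1a1 was highest in vehicle at 48 h (10.80 ± 0.10 log2 units, SD, n = 5) and vehicle at 24 h (10.58 ± 0.16), which overlapped, and all 4 treated groups followed between 10.18 ± 0.092 (3000 µM, 24 h) and 9.95 ± 0.17 (3000 µM, 48 h). Each treated group overlapped the next, and the only gap without overlap in that order lay between the vehicle and the treated groups.

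Slco1a4 encodes a carrier that takes up digoxin and other drugs beside bile acids, and it was the 1 member that rose. On probe set 1387093_at the Slco1a4 signal at 24 h was 5650.2, 4799.99, 6511, 4056 and 4153 in the vehicle wells, 5357, 7987, 5202, 6490.2 and 5397 at 300 µM and 10868, 8526, 9692, 10283 and 9333 at 3000 µM. At 48 h it was 3287, 2956, 2665, 2524 and 2167 in the vehicle wells, 2257, 3093, 2448, 3257 and 2713 at 300 µM and 5305, 4104, 4835, 3876 and 4670.1 at 3000 µM. At each time every 3000 µM well lay above every vehicle and every 300 µM well, and the vehicle and 300 µM wells overlapped. The rise at 3000 µM was 1.96-fold at 24 h (log2 change 0.97, SE 0.13, adjusted p = 5.97e-07) and 1.68-fold at 48 h (log2 change 0.75, adjusted p = 2.35e-05).

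The other Slco1a4 probe set, 1387094_at, had signals of 961, 1051, 1598, 1105 and 949.6 in the vehicle wells, 1166, 2161, 1135, 1833 and 1378 at 300 µM and 3182, 2910.4, 3106, 3813 and 2844 at 3000 µM at 24 h. At 48 h it read 683, 554, 804, 806 and 709.99 in the vehicle wells, 631, 612, 678, 692 and 831 at 300 µM and 1622, 1111, 1682, 1671 and 1698 at 3000 µM. Here too the 3000 µM wells lay above both other groups of the same time. Its rise at 3000 µM was 2.84-fold at 24 h (log2 change 1.50, SE 0.16, adjusted p = 4.67e-09) and 2.18-fold at 48 h (log2 change 1.13, adjusted p = 6.69e-07). At 300 µM the differences from vehicle were 0.28 and 0.42 on the 2 probe sets at 24 h (95% intervals 0.01 to 0.55 and 0.094 to 0.74, adjusted p = 0.318 and 0.183). At 48 h they were 0.018 and -0.042 (95% intervals -0.25 to 0.29 and -0.37 to 0.28), and none of the 4 passed.

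In the order of means both Slco1a4 probe sets were highest at 3000 µM and 24 h (13.24 ± 0.13 and 11.62 ± 0.17 log2 units, SD, n = 5), which overlapped no other group. The 3000 µM wells at 48 h stood at 12.14 ± 0.18 and 10.59 ± 0.26, and overlapped the vehicle wells at 24 h on 1387093_at (12.27 ± 0.29) and the 300 µM wells at 24 h on 1387094_at (10.54 ± 0.41). The vehicle and 300 µM groups at 48 h were lowest on both, at 11.40 ± 0.23 and 11.41 ± 0.22 on 1387093_at and 9.46 ± 0.22 and 9.42 ± 0.17 on 1387094_at, and overlapped each other.

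**Figure D2:**
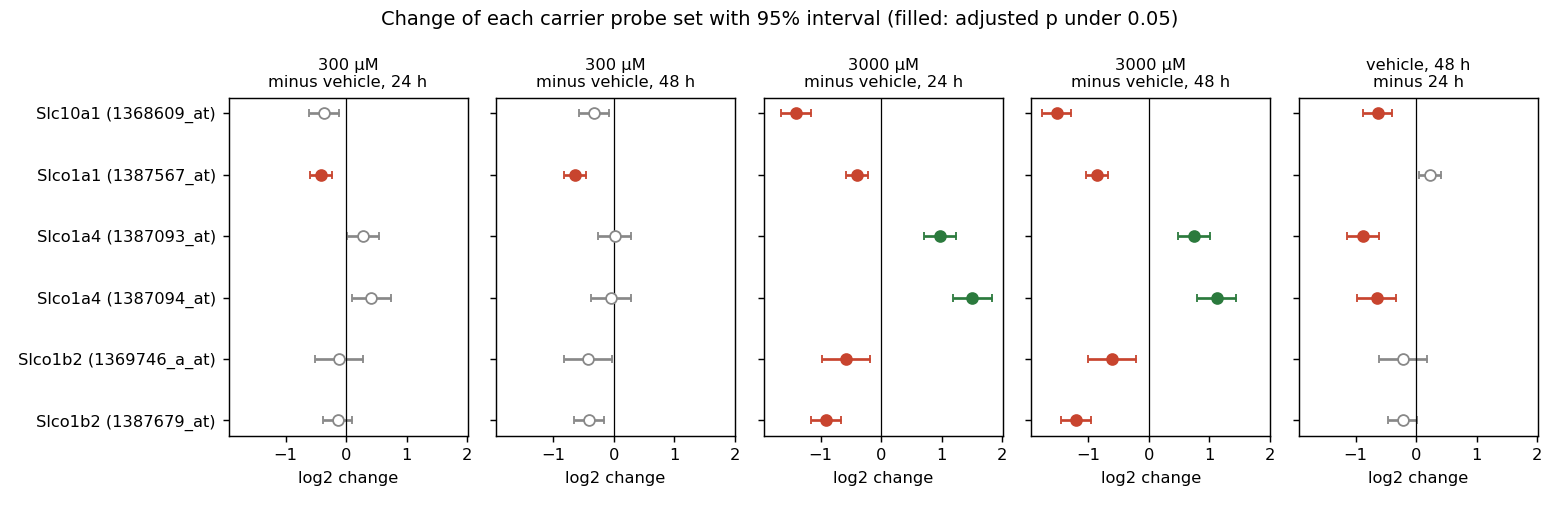
Log2 change of each carrier probe set (horizontal axis) with its 95% interval, for each dose against vehicle at each time and for vehicle at 48 h against 24 h; filled points passed the test, red lower and green higher. At 3000 µM all 6 points are filled, with the 2 Slco1a4 points above 0 and the other 4 below, while at 300 µM only Slco1a1 is filled.

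Wells that did not overlap with vehicle were counted as well, with the same limit on the counts from the choice of the members. At 3000 µM this held for 6 of 6 carrier probe sets at each time. Of all probe sets tested it held for 24.5% at 24 h and 24.2% at 48 h. At 300 µM it held for 2 of 6 at 24 h, Slc10a1 and Slco1a1, and for 1 of 6 at 48 h, Slco1a1, against 5.30% and 4.84%. Of the 6 at 3000 µM, Slco1b2 1369746_a_at was tested only because groups where it is high reached the tested level. Its 3000 µM means lay under that level, at 8.41 at 24 h and 8.17 at 48 h. Its low 3000 µM wells are thus in part ensured by the filter and lend the count of 6 no support.

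The doses differed directly for 4 of 6 carrier probe sets at each time, both probe sets of Slco1a4 higher at 3000 µM and Slc10a1 and Slco1b2 1387679_at lower, where 26.1% of all probe sets tested differed at 24 h (13.9% higher, 12.2% lower) and 34.9% at 48 h (17.9% higher, 16.9% lower). Slc10a1 differed by -1.04 at 24 h and -1.20 at 48 h (adjusted p = 4.07e-08 and 1.12e-09). Slco1b2 1387679_at differed by -0.77 and -0.79 (adjusted p = 7.25e-06 and 2.53e-06). The Slco1a4 values were 0.69 and 0.73 on 1387093_at and 1.09 and 1.17 on 1387094_at, with adjusted p from 4.46e-07 to 0.000134. On Slco1b2 1369746_a_at the dose difference was -0.47 at 24 h (95% interval -0.87 to -0.08, adjusted p = 0.0694) and -0.19 at 48 h (95% interval -0.58 to 0.21). The 24 h value gained a call without 300 µM 24 h replicate 1 (adjusted p = 0.0424) and with array weights (adjusted p = 0.0430).

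Some of the carriers also changed with time in culture. In vehicle wells Slc10a1 was 1.56-fold lower at 48 h than at 24 h (log2 change -0.64, SE 0.12, adjusted p = 0.000582), and no vehicle wells of the 2 times overlapped. Slco1a4 was 1.84-fold lower on 1387093_at (log2 change -0.88, adjusted p = 3.05e-05) and 1.58-fold lower on 1387094_at (log2 change -0.66, adjusted p = 0.0082). These 3 of 6 carrier probe sets were the ones that passed, and 3.15% of all probe sets were lower at 48 h. Slco1a1 differed by 0.22 (95% interval 0.038 to 0.41, adjusted p = 0.145) and Slco1b2 by -0.22 on 1387679_at (95% interval -0.47 to 0.02) and -0.22 on 1369746_a_at (95% interval -0.62 to 0.17), which did not pass.

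In treated wells 4 of 6 carrier probe sets were lower at 48 h than at 24 h at each dose, against 2.33% of all probe sets lower at 300 µM and 7.53% at 3000 µM. These were Slc10a1 (-0.60 at 300 µM and -0.75 at 3000 µM), Slco1a4 (-1.14 and -1.10 on 1387093_at, -1.12 and -1.04 on 1387094_at) and Slco1b2 1387679_at (-0.49 and -0.52). The Slco1b2 value at 300 µM lost its call without 300 µM 48 h replicate 1 (adjusted p = 0.0553). Slco1a1 differed between the times by -0.0047 at 300 µM (95% interval -0.19 to 0.18) and by -0.23 at 3000 µM (95% interval -0.42 to -0.046, adjusted p = 0.088).

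Whether the effect of a dose differed between the times was tested as a difference of differences. Slco1a1 passed at 3000 µM, where its fall was larger at 48 h by -0.45 on the log2 scale (SE 0.13, 95% interval -0.72 to -0.19, adjusted p = 0.0394), and it was 1 of 6 carrier probe sets against 4.15% of all. The call was lost in a fit of the 4 groups alone (adjusted p = 0.0845), with array medians centred (0.0667), with no filter (0.0702), with sets of 6 running numbers as a replicate block (0.0549), and without 1 of 10 of the 20 wells, in turn (0.0524 to 0.0807). For Slc10a1 the same difference was -0.11 (95% interval -0.45 to 0.23), for Slco1b2 -0.29 on 1387679_at (95% interval -0.64 to 0.051) and -0.02 on 1369746_a_at (95% interval -0.58 to 0.54), and for Slco1a4 -0.22 and -0.38 (95% intervals -0.60 to 0.16 and -0.84 to 0.078). At 300 µM 0 of 6 carrier probe sets passed in limma (1 at an unadjusted p under 0.05), and 0% of the 16596 probe sets passed (1251 at an unadjusted p under 0.05). The 300 µM values ran from -0.46 (Slco1a4 1387094_at) to 0.042 (Slc10a1).

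The carriers were then set against each other within wells, with the brighter probe set of Slco1a4 and of Slco1b2. In each well the log2 signal of 1 gene was subtracted from that of another, and treated and vehicle wells were compared by a 2-sided exact permutation test of 5 wells against 5, whose smallest p is 0.00794. Of 24 such tests, 6 pairs in 4 comparisons, 14 had a Benjamini-Hochberg adjusted p under 0.05 over the 24, 10 of 12 at 3000 µM and 4 of 12 at 300 µM. These tests were added with the changes of the single genes in view. At 3000 µM the Slco1a4 wells lay above, and the wells of the other carriers below, all vehicle wells of the same time. The exact p of every pair with Slco1a4 at that dose was thus fixed at its smallest, and adds no support beyond the single genes. These fixed tests are among the 14 and the 24, so the counts do not measure support. They also make the adjusted exact p of the other pairs smaller than it would be without them.

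Slc10a1 and Slco1a4 moved furthest apart. At 3000 µM the change of Slc10a1 minus that of Slco1a4 was -2.38 at 24 h (SD 0.18 in treated and 0.40 in vehicle wells) and -2.27 at 48 h. Each had an adjusted exact p of 0.0173, which the single-gene wells fixed in advance, as for the other Slco1a4 pairs at this dose. The neighbours Slco1a1 and Slco1a4, whose start-site sequences above were the most alike, parted at both doses, by -0.69 and -0.66 at 300 µM and -1.37 and -1.60 at 3000 µM (adjusted exact p = 0.0173 each). Slco1a4 and Slco1b2, also neighbours, parted by 1.88 at 24 h and 1.95 at 48 h at 3000 µM (adjusted exact p = 0.0173 each). At 300 µM they parted by 0.42 at 24 h (adjusted exact p = 0.0508) and 0.43 at 48 h (adjusted exact p = 0.0408). That last value, with an unadjusted exact p of 0.0238, is close to the threshold and rests in part on the fixed tests among the 24.

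The 3 carriers that fell at 3000 µM did not fall equally. Slc10a1 fell more than Slco1a1 at both times (differences of -1.01 and -0.67, adjusted exact p = 0.0173 each). At 300 µM and 48 h the order was turned, with Slco1a1 lower relative to Slc10a1 by 0.32 (adjusted exact p = 0.0293). Slc10a1 fell more than Slco1b2 at 24 h (-0.50, adjusted exact p = 0.0293), and the difference of -0.32 at 48 h did not pass (adjusted exact p = 0.0952). Slco1b2 fell more than Slco1a1 at 24 h, by 0.51 (adjusted exact p = 0.0173), and at 48 h the difference of 0.35 did not pass (adjusted exact p = 0.105).

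**Figure D3:**
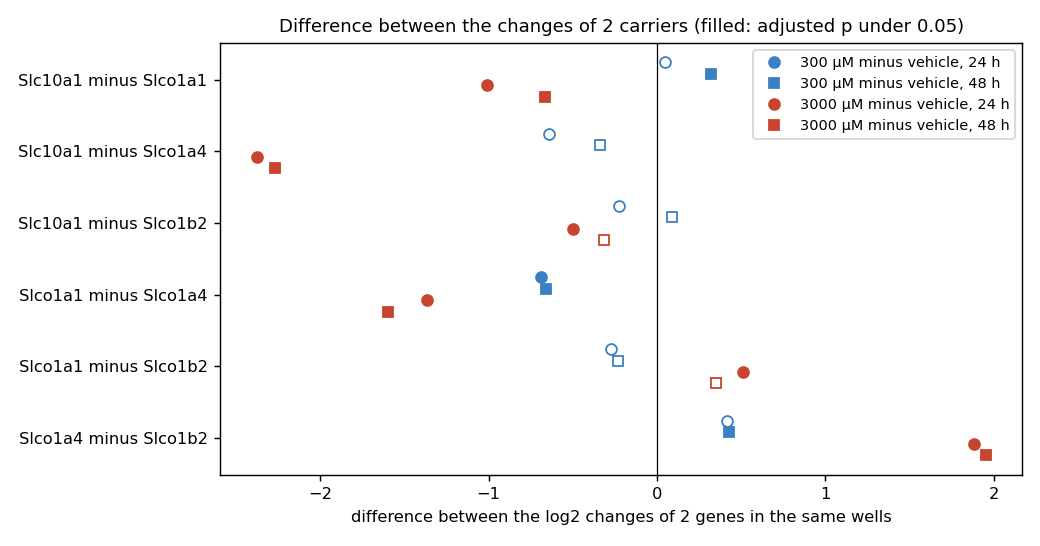
Difference between the log2 changes of 2 carrier genes measured in the same wells (horizontal axis), for the 6 pairs of Slc10a1, Slco1a1, Slco1a4 and Slco1b2, with blue for 300 µM, red for 3000 µM, circles for 24 h and squares for 48 h; filled symbols had an adjusted exact p under 0.05. The 3 pairs with Slco1a4 lie farthest from 0 at 3000 µM, and 10 of 12 red and 4 of 12 blue symbols are filled. The red symbols of the 3 Slco1a4 pairs were bound to be filled, since their single genes left the vehicle wells in opposite directions without overlap. Their tests also lower the adjusted exact p of the other pairs.

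Probe sets of other genes with the most similar pattern over the 6 group means were listed for the members whose means spanned at least 1 log2 unit. They were ranked by the root mean square difference of the centred means. Only tested probe sets with 1 symbol were ranked, and provisional locus names were left out. For Slc10a1 these were Pklr, the liver form of pyruvate kinase (0.0875 log2 units), Fabp4, a fatty acid binding protein (0.113), Coq8a (0.133) and Plpp3 (0.136). For Slco1b2 1387679_at they were Plg, the gene of plasminogen (0.0777), Serpinf2, an inhibitor of plasmin (0.0786), Cyp2d3 (0.0803) and S1pr1 (0.0806). None of the ranked probe sets followed Slco1a4 as closely. The nearest to 1387093_at were Idi1, an isomerase of isoprenoid synthesis (0.208 and 0.277 on its 2 probe sets), Msmo1, a sterol oxidase (0.258), and Bcar1 (0.299). The nearest to 1387094_at were Msmo1 (0.259), Idi1 (0.276), Opn3 (0.296) and Dyrk3 (0.355). The 2 Slco1a4 probe sets were not set against each other by this measure. Idi1 and Msmo1 moved in the directions of Slco1a4 at 3000 µM and with time in vehicle wells. They were picked by likeness over these same group means, so this is no separate result. Bcar1 did not rise at 3000 µM and 24 h (-0.056), and Opn3 and Dyrk3 were higher with time in vehicle wells (0.12 and 0.17), where Slco1a4 fell. Slco1a1 and Slco1b2 1369746_a_at spanned under 1 log2 unit and were not ranked.

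Of 18 other uptake and related solute carriers listed, 10 were tested. Of all probe sets tested, 17.3% were higher and 14.8% lower at 3000 µM and 24 h, and 19.5% higher and 19.9% lower at 48 h. At 300 µM 2.99% and 1.54% passed in either direction, for this list and those below. At 3000 µM 2 rose and 4 fell at each time (medians -0.18 and -0.17, against 0.0093 and -0.00083 for all probe sets tested), and at 300 µM 0 of 10 passed in limma at either time (2 and 1 at an unadjusted p under 0.05), with medians of -0.013 and 0.0087. Slc22a7, which encodes the organic anion transporter OAT2, fell by 0.54 on the log2 scale at 24 h and by 0.56 at 48 h. Slco2a1, a prostaglandin carrier, fell by 0.51 and 0.50, and Slc10a2, the ileal sodium-dependent bile acid carrier, fell by 0.39 at 24 h and by 0.75 at 48 h. Slc10a7 was higher by 1.07 and 0.83, and it reached the tested level only at 3000 µM, where it is high, so its rise lends the count no support. With array medians centred, Slc10a2 at 24 h and Slc22a8 at both times lost their calls. The chromosome 4 relatives Slco1a5, Slco1a6 and Slco1c1 stayed below the tested level in all 6 groups, with highest group means of 8.26, 5.45 and 6.81 log2 units.

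Among efflux genes, 10 of 15 listed were tested, and 6 rose and 1 fell at 3000 µM and 24 h, with 4 up and 1 down at 48 h (medians 0.25 and 0.13). The shares of all probe sets tested were 17.3% and 19.5% higher, and 14.8% and 19.9% lower. Abcb1a, a drug efflux pump, was higher by 1.28 and 1.47, and Abcc2, the pump for conjugates into bile, by 0.55 and 1.04. Abcc4, which can carry bile acids back to the blood, was higher by 0.48 and 0.69. At 300 µM 3 efflux genes rose at 24 h, Abcb1a by 0.70, Abcc3 by 0.36 and Abcb11, the bile salt export pump, by 0.21, a call lost with array medians centred. At 48 h Abcc2 was higher by 0.29 and Atp8b1, a phospholipid flippase, lower (-0.45), with list medians of 0.12 and 0.10. Of 5 membrane scaffold genes, Nherf1 rose by 0.39 at 3000 µM and 48 h, and 0 of 5 passed in limma in the other 3 comparisons with vehicle (1 and 3 at 300 µM and 1 at 3000 µM and 24 h at an unadjusted p under 0.05). Of all probe sets tested, 32.0% passed at 3000 µM and 24 h and 39.4% at 48 h, in either direction.

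Of 15 genes of bile acid synthesis and conjugation tested, 10 fell and 5 did not pass at 3000 µM at each time (medians -0.28 and -0.54). Of all probe sets tested, 14.8% were lower at 24 h and 19.9% at 48 h. Cyp8b1, the sterol hydroxylase that sets the cholic acid share, changed by -3.50 and -2.93, Cyp7a1, the rate-limiting enzyme, by -1.28 and -1.57, and Baat, which conjugates bile acids to glycine and taurine, by -0.66 and -1.16. At 300 µM Cyp7a1 went the other way, higher by 1.81 at 24 h and 1.02 at 48 h (the 48 h call was lost with array medians centred, which left 1 up and 1 down), and the list had 3 up and 1 down at 24 h and 2 up and 2 down at 48 h (medians -0.022 and -0.044). Acox2, a peroxisomal oxidase of bile acid precursors, also rose at 300 µM, by 0.73 and 0.92.

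Of 19 receptors and transcription factors tested that are known to act in hepatocytes, 9 fell and 10 did not pass at 3000 µM at 24 h, and 10 fell and 2 rose at 48 h (medians -0.25 and -0.43). Of all probe sets tested, 14.8% were lower at 24 h, and 19.9% were lower and 19.5% higher at 48 h. Nr1i3, the gene of CAR, changed by -1.39 and -1.31, Foxa1, a forkhead factor, by -1.55 at 24 h, Nr1h4, which encodes the bile acid receptor FXR, by -0.90 at 24 h, and Foxa3 by -1.29 at 48 h. Ahr, the aryl hydrocarbon receptor, was higher by 1.25 at 48 h, but both genes that rose, Ahr and Stat5b, lay under the tested level in vehicle at that time. At 300 µM 0 of 19 passed in limma at 24 h (4 at an unadjusted p under 0.05), and Ghr, the growth hormone receptor, was the 1 that passed at 48 h (-0.50), with list medians of -0.069 and -0.077. No call in these lists turned sign with array medians centred or with quantile normalization, although some were lost.

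**Figure D4:**
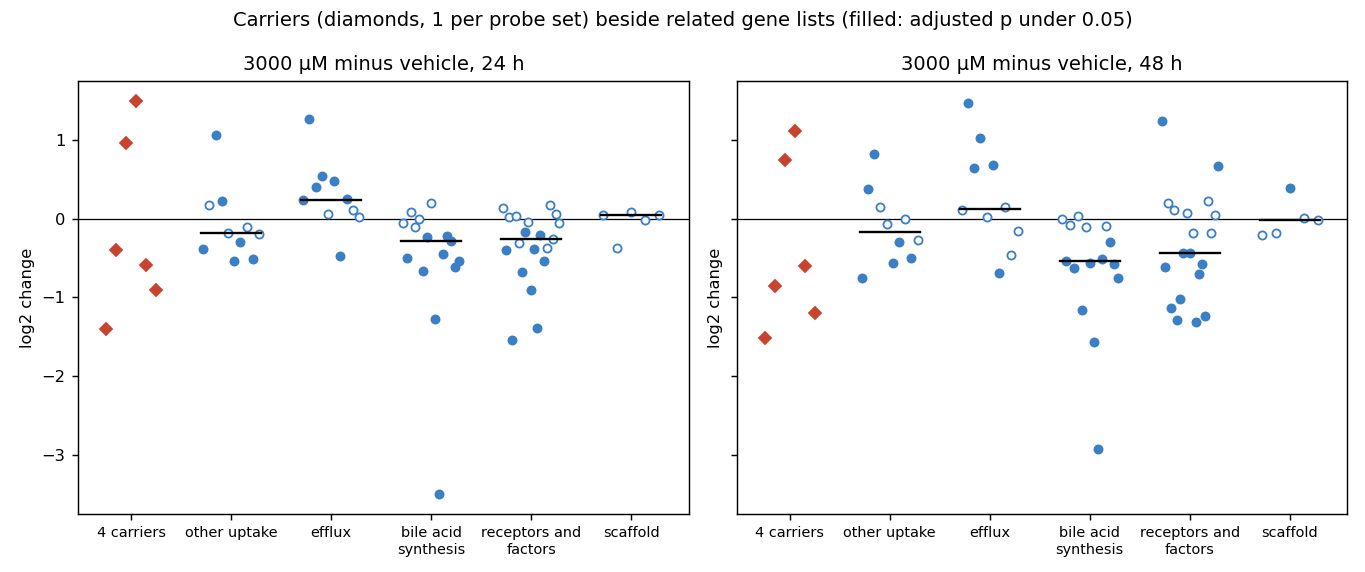
Log2 change at 3000 µM against vehicle (vertical axis) at 24 h and 48 h for the 6 carrier probe sets (red diamonds) and for the tested genes of 5 related lists (blue points, 1 probe set per gene, filled where the test passed), with bars at list medians. The carriers spread to both sides of 0, while all filled bile acid synthesis points lie below 0.

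Levels of hepatocyte and other cell markers are given beside these results. The summed signal of the 9 hepatocyte markers was 534896 to 698240 in vehicle, 433844 to 523174 at 300 µM and 455972 to 492184 at 3000 µM at 24 h, and 465170 to 545197, 455374 to 531418 and 432780 to 744320 at 48 h. The vehicle sums thus lay above both treated groups at 24 h and overlapped them at 48 h. The sums include the 2 arrays with high hybridization controls and were not recomputed without them. At 3000 µM and 48 h the Alb signal alone had a median of 89423 and a highest well of 186506. Of the 9 markers 6 fell at 3000 µM and 24 h and 3 fell at 48 h, with the others not passing, led by Asgr1, an asialoglycoprotein receptor subunit (-0.62 and -0.88). Of all probe sets tested, 14.8% and 19.9% were lower in these comparisons, and 32.0% and 39.4% passed in either direction. At 300 µM 0 of 9 passed in limma at either time (6 and 1 at an unadjusted p under 0.05), against 2.99% and 1.54% of all. Albumin (Alb) passed in no comparison with vehicle, and Ttr, transthyretin, fell at 3000 µM and 24 h (-0.29). Array medians centred and quantile normalization each left 3 of the 6 falls at 24 h, without Ttr, Apoa1 and Ahsg. Centring added 1 marker that rose at each time, and quantile normalization 1 at 48 h. Under quantile normalization 1 marker also fell at 300 µM and 48 h.

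Of the markers of other cells, 6 of 9 for macrophages, 4 of 10 for stellate cells, 2 of 8 for endothelium, 2 of 6 for cholangiocytes and 3 of 9 for lymphocytes reached the tested level. The macrophage sum was 11710.2 to 13262, 10646 to 12315 and 12661 to 13990.3 at 24 h in vehicle, 300 µM and 3000 µM wells, and 9118 to 11423, 10234 to 11315 and 11004 to 12662 at 48 h. Of the macrophage markers, Cd68 (0.54 and 0.80) and Lyz2 (0.20 and 0.29) were higher at 3000 µM at both times, and C1qa and C1qb were lower at 24 h (-0.81 and -1.62). Of the others, Cd4 was lower at both times (-1.07 and -1.02), and at 48 h endothelial Eng was higher (0.47) and cholangiocyte Epcam lower (-0.14). At 300 µM cholangiocyte Ggt1 was higher at 48 h (0.43). The calls on Epcam and Ggt1 were lost with array medians centred, and C1qa and C1qb at 3000 µM and Cd4 in both groups lay under the tested level. For each of these 5 cell types the sums of treated and vehicle wells of the same time overlapped, and no marker was at 0. What part shifts in these markers had in the carrier results was not tested.

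The carrier results that rest on the 2 arrays with high hybridization controls were recomputed without them. All 6 probe sets passed at 3000 µM at both times, with Slc10a1 at -1.40 and -1.58, Slco1b2 1387679_at at -0.90 and -1.20, Slco1a1 at -0.36 and -0.91, and Slco1a4 at 1.02 and 0.81 on 1387093_at and 1.45 and 1.09 on 1387094_at. Slco1a1 remained the 1 carrier that passed at 300 µM, at -0.37 and -0.64. Of the 34 calls on carrier probe sets in the 11 comparisons, 31 kept their direction and their call in every alternative run.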

How the data were processed

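Expression was measured in 30 culture wells, 1 array each. The deposited linear intensities, 1 per probe set, were made by the authors with MAS5 per the submitters' processing notes; its version and target value are not given in the sources used here. The mean signal without the highest and lowest 2% was 1500.6 to 1500.7 on every array. Signals were put on the log2 scale with no constant added, and probe sets were tested whose highest mean among the 6 groups was at least 8.58, the overall median. limma 3.58.1 in R 4.3.3 was fitted to all arrays with a mean for each of 6 groups (lmFit and eBayes, trend and robust, 2-sided, Benjamini-Hochberg within each of 11 comparisons), and the code was tested on simulated data. With 5 wells per group, the number of arrays limits the precision. The members and the gene lists were chosen with earlier results of these data known. Named beyond the members are up to 3 changed genes per list and comparison with the largest log2 change, Cyp2b1/Cyp2b2, Cyp2c6v1, Alb and Ttr, changed cell markers, and the 4 probe sets with the smallest root mean square difference from a member. List genes are read by their brightest probe set with 1 symbol, and genes without such a probe set were left out. Alternatives were other scalings, a constant of 50, no filter, the compared groups alone, a replicate block, array weights and left-out arrays; the within-well tests and the rescaled lists were added after the values were seen.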

Additional observations from a re-analysis of the deposited data

Results flagged for a closer look

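The Slco1a4 signal on 1387094_at in 3000 µM 48 h replicate 2 stood apart from the other 4 wells of its group, at a log2 signal of 10.12 against their mean of 10.70. The signal there was 1111, still above all 5 vehicle wells of that time. Of 36 groups of 5 wells looked at for the carrier probe sets, this was the 1 that stood apart, and chance gives about 1 in 20.

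The effect of 3000 µM on Slco1a1 differed between the times by -0.45 on the log2 scale (48 h minus 24 h, adjusted p = 0.0394 in limma), and this test of the difference lost its call in 4 of the 8 other settings and in 10 of 20 fits without 1 well.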

How the results depend on the processing

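Of 34 carrier calls, 31 kept direction and call in every alternative run. Besides Slco1a1 above, the exceptions were Slco1b2 1369746_a_at at 3000 µM and 24 h and Slco1b2 1387679_at with time at 300 µM, each lost without single wells named above. Of 32 results without a call, 6 gained one in some setting, among them Slco1a1 with time at 3000 µM (adjusted p = 0.0313 with array medians centred) and Slco1b2 1369746_a_at with time at 300 µM (0.0499 without 300 µM 48 h replicate 3). The number of carrier probe sets changed at 300 µM and 24 h was 2, not 1, with only the groups compared. The number whose 3000 µM effect differed between the times was 0, not 1, with array medians centred, with no filter, with only the groups compared and with the replicate block. With each well left out in turn the numbers ran over 1 to 2 at 300 µM and 48 h, 5 to 6 at 3000 µM and 24 h, 4 to 5 between the doses at each time, 3 to 5 with time at 300 µM, 4 to 5 with time at 3000 µM and 0 to 1 for the 3000 µM effect.

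Direction turned for 6 results, none of them called, when wells were left out in turn. The log2 changes ran over -0.060 to 0.090 for Slco1a4 1387093_at and -0.13 to 0.0066 for 1387094_at at 300 µM and 48 h, -0.029 to 0.040 for Slco1a1 between the doses at 24 h, -0.049 to 0.027 for Slco1a1 with time at 300 µM, -0.065 to 0.12 for the 300 µM effect on Slc10a1 and -0.15 to 0.068 for the 3000 µM effect on Slco1b2 1369746_a_at.

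Counts over all probe sets moved more. At 300 µM and 24 h 496 became 227 with array medians centred. At 300 µM and 48 h 255 became 124 with array medians centred, 482 with only the groups compared, 469 without the 2 arrays and 615 with array weights. With time, 1195 became 736 in vehicle and 862 became 549 at 300 µM with array medians centred, and 2316 became 1186 at 3000 µM with only the groups compared. For the 3000 µM effect 688 became 234 with array medians centred, 362 with no filter and 319 with only the groups compared, and for the 300 µM effect 0 became 3 with only the groups compared, 1 without the 2 arrays and 1 with array weights. With each well left out in turn the counts ran over 325 to 443 and 168 to 266 at 300 µM at 24 h and 48 h, 410 to 973 for the 3000 µM effect and 0 to 1 for the 300 µM effect. Other scalings moved the median change of all probe sets by at most 0.076 on the log2 scale.

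With sets of 6 running numbers as a replicate block, the number of carrier probe sets changed was the same in 10 of 11 comparisons and 0 for the 3000 µM effect, with 466 probe sets changed at 300 µM and 24 h. The deviations of wells of 1 set had a mean correlation of 0.0052 over 75 pairs (-0.064 to 0.094), against -0.0013 for wells of other sets. Of 30 wells, 9 correlated best with their own set. There were 5 such sets, so about 1 well in 5 would do so by chance. The labels do not say what the number counts, so these values do not settle whether wells of 1 set shared a preparation.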
